A study of Mus musculus with 18 samples.

Results

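The genes described here are the histone modifier and chromatin remodeller genes of the mouse: the protein-coding genes of the mm10 RefSeq table whose symbols begin with Kdm, Kmt2, Hdac, Arid or Smarc, or with Kat or Chd followed by a digit. The rule left out 1 gene with such a symbol, and 74 of 21887 protein-coding genes met it. They were read in lists of open chromatin peaks from adult C57BL/6 mouse lung (c57/bl6 in the labels, 6 to 12 weeks of age). Sorted cells lacked CD31 and CD45, carried Epcam and Sca-1, and were split by CD24 into CD24neg, CD24low and CD24high populations. The mice had been given a G9a inhibitor (G9ai) or vehicle, with 3 mice per arm in the design and no genetic change named for either arm. Assay for transposase-accessible chromatin with sequencing (ATAC-seq) was done on 10000 cells per library, and the 18 samples formed 6 groups. The 10 peak lists used were from G9ai replicates 2 and 3 in every population, and for vehicle from replicates 2 and 3 in CD24low but replicate 3 alone in CD24neg and CD24high. Another 8 samples are not analysed here.

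Histone proteins carry methyl and acetyl groups that enzymes place and remove, and the balance of these marks goes with how readily DNA can be reached. Kmt2 and Kat enzymes add methyl and acetyl groups, Kdm and Hdac enzymes take them off, and Chd and Smarc proteins use ATP to slide or evict nucleosomes, in part together with Arid subunits of the BAF and PBAF complexes. G9a, the target of the inhibitor, methylates lysine 9 of histone H3, a mark that several of the Kdm enzymes remove. ATAC-seq reads where DNA is open at or near these genes and says nothing of how much of their product is made.

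Each list held 2552 to 12985 peaks, after 47 to 472 repeated lines per list were dropped, and peaks had median widths of 129 to 183 bp. The lists hold peaks that are nearly all particular to an arm: replicates of an arm list almost the same peaks, and the arms share almost none. The lists were thus already selected by treatment when deposited, the spread between replicate lists understates the difference between mice, and a gene without any peak in the lists can still be open in either arm or in both. The G9ai lists were shorter than the vehicle list in CD24neg (mean 4161 against 8870 peaks) and CD24high (2807.5 against 12985) and longer than the vehicle lists in CD24low (7370 against 2555). The exact two-sided permutation test of list length gave p = 0.333 in each population, the smallest value these numbers of lists allow. Because replicate lists of an arm hold almost the same peaks, the test could hardly give another value. It does not bear on differences between mice. Within an arm, peak names of same-numbered libraries carry the same prefix in all 3 populations (G9ai replicates 2 and 3 and vehicle replicate 3), so the populations may share mice; the sources used here do not say what the prefix stands for. Depth is unknown, since the files hold no read counts.

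A region here is a stretch covered by the peaks of a population, merged where they overlap by at least 1 bp. It is called G9ai-only when every G9ai library of that population lists a peak there and no vehicle library does, and vehicle-only in the reverse case. A region belongs to a gene when it lies in the gene span or within 1 kb of it. The members are long genes, with a median length of 51695.5 bp against 17169 bp for all protein-coding genes, and a longer gene holds more regions by its length alone. Each count of members is therefore set beside the number given by gene length, which is the sum over the members of the share of all genes called in the same of 20 length classes. No p is given for counts over the members, and the comparisons between arms in CD24neg and CD24high rest on 1 vehicle library each.

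Listed regions lay in or near 58 of the 74 members, against 43.7% of all protein-coding genes and 45.9 members given by length. In CD24neg, 23 members had a G9ai-only region, against 10.6% of all genes and 12.9 members given by length, and 30 had a vehicle-only region, against 18.9% of all genes and 22.5 by length. In CD24high, 17 had a G9ai-only region, against 8.01% of all genes and 9.61 by length, and 37 had a vehicle-only region, against 25.0% of all genes and 28.9 by length. All 4 counts were above the number given by length, by 1.28 times for CD24high vehicle-only up to 1.78 times for CD24neg G9ai-only.

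In CD24low, where both arms had replicate lists, 25 members had a G9ai-only region, against 15.9% of all genes and 18.9 by length. A vehicle-only region lay in 21 members, against 7.44% of all genes and 8.70 by length. The vehicle-only count stood at 2.41 times the number given by length and the G9ai-only count at 1.32 times. The G9ai-only count in CD24low did not stay above the length number under every setting. With the higher-scoring 50% of peaks of each list it was 7 against 7.45 by length, and with all lists brought to the length of the shortest it was 2 against 4.67. The vehicle-only count in CD24low was 7 against 2.74 by length in the higher-scoring 50% of peaks.

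**Figure D1:**
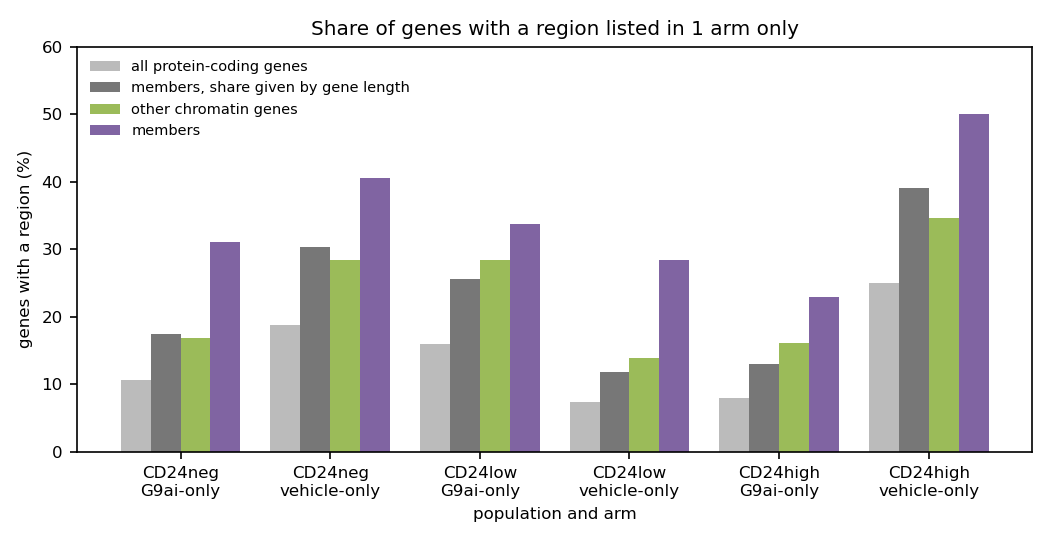
Share of genes (%) with a region listed in 1 arm only, by population and arm, for all protein-coding genes, for the members as given by gene length, for other chromatin genes and for the 74 members. The members' bar is the tallest in each of the 6 comparisons, from 23.0% (CD24high G9ai-only) to 37 of 74 genes (CD24high vehicle-only).

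By peaks, each of the G9ai lists of CD24neg held 34 in member windows and the vehicle list 50. In CD24low each G9ai list held 33 and each vehicle list 24. In CD24high each G9ai list held 22 and the vehicle list 62. Replicate lists of a group held equal numbers in member windows. Per Mb of member window, the lists held 5.17 peaks (CD24neg G9ai), 7.61 (CD24neg vehicle), 5.02 (CD24low G9ai), 3.65 (CD24low vehicle), 3.35 (CD24high G9ai) and 9.43 (CD24high vehicle). Over all gene windows the matching densities were 2.68, 5.57, 4.57, 1.69, 1.96 and 8.14 peaks per Mb, so the member density was higher in each of the 10 lists.

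The direction of the arms followed that of the lists as a whole, less steeply. In CD24low 58.2% of member regions were on the G9ai side, against 72.9% of all gene-linked regions. In CD24neg the share was 40.2% against 32.0%, and in CD24high 26.2% against 18.8%. Over the 3 populations the members held 221 such regions, 87 on the G9ai side and 134 on the vehicle side. A place listed in several populations was counted once in each, here and in the counts and densities per gene below. By gene, 34 members had regions on both sides, 17 on the vehicle side alone, 7 on the G9ai side alone and 16 on neither. These numbers are given without an all-gene share, so nothing particular to the members is read from them.

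**Figure D2:**
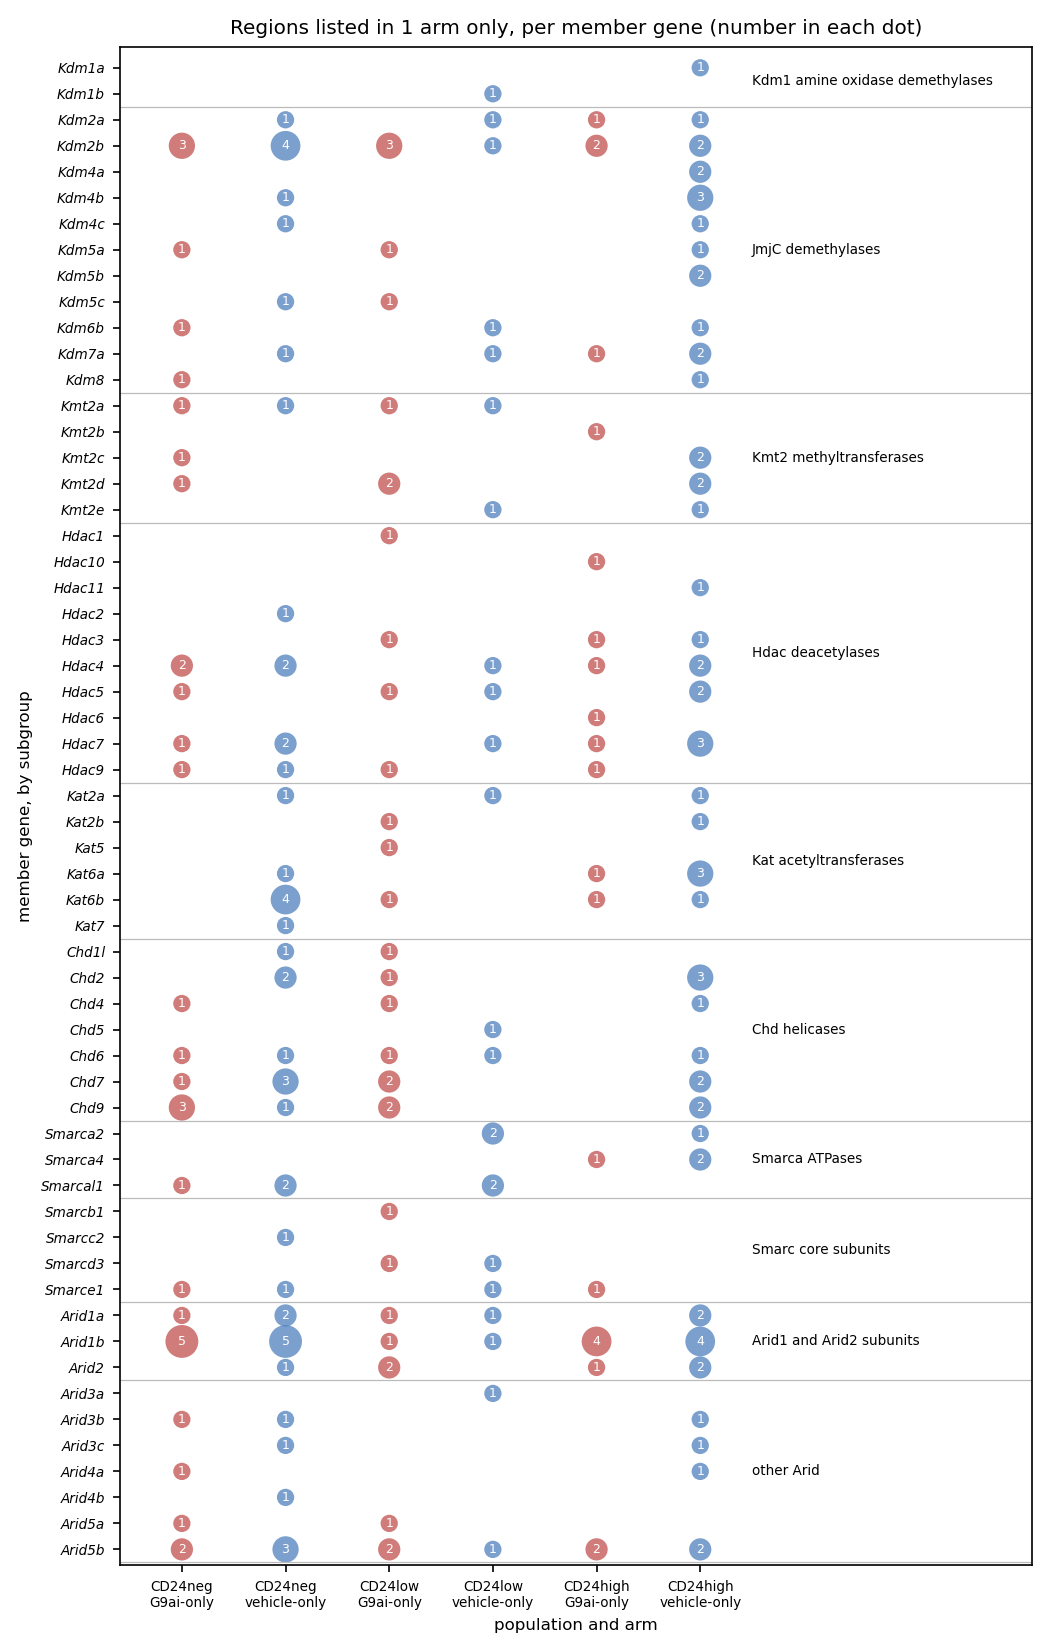
Number of regions listed in 1 arm only for each of the 58 members that have any, by population and arm (red, G9ai-only; blue, vehicle-only; dot area grows with the number written in it), with members ordered by role. Arid1b, Kdm2b and Arid5b have dots in all 6 columns, and Kat2a has vehicle-only dots alone, 1 in each population.

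Some regions lay at the start of a member gene, and the sequences there show which bases the lists cover. A table of RefSeq promoters (assembly GRCm38.p6, the build of mm10) gave 76 start sites for 56 of the 74 members. Of 167 member regions in genes with a start site in it, 38 (22.8%) lay within 1 kb of the nearest such site, against 25.1% of all gene-linked regions. The share was largest for CD24low vehicle-only regions, 8 of 18 (44.4%), where it was 37.4% over all genes. The 250 bases before the start are printed below, 5′ to 3′ in the direction of the gene, for the members whose promoter regions the results turn on. Capitals mark the bases under a listed region of any population and arm.

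The first is Kat2a (chr11:100712468-100712717, minus strand), whose product GCN5 is an acetyltransferase of the SAGA complex, shown because its start site is the only promoter listed on the same side in all 3 populations:
Kat2a: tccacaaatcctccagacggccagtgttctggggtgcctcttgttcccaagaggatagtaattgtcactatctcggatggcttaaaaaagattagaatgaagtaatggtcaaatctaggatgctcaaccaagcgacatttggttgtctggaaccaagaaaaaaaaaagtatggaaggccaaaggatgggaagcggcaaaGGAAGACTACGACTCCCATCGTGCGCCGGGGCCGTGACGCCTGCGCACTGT
The site, chr11:100712398-100712518, is vehicle-only in each population. In CD24neg the vehicle replicate 3 list gave it a peak score of 181 (the authors' score, at percentile 94.1 of that list). In CD24low the scores were 50 for vehicle replicate 2 and 58 for vehicle replicate 3, at percentiles 16.4 and 24.8. In CD24high the score was 101, at percentile 50.5. The rank of the peak runs from low in CD24low to high in CD24neg. That no G9ai list holds a Kat2a peak is part of how the region was defined.

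Kdm2b (chr5:122989100-122989349, minus strand) encodes a demethylase that binds unmethylated CpG DNA and brings a Polycomb complex to it, and its promoter is shown because both CD24neg and CD24low list it with G9ai:
Kdm2b: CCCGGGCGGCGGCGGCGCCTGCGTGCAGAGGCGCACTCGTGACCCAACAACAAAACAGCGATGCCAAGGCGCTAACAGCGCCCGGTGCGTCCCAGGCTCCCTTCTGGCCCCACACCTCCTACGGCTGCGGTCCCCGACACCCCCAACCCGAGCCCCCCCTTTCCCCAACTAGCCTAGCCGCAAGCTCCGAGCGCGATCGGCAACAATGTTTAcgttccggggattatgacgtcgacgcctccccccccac
The site, chr5:122989138-122989389, had scores of 86 and 162 in CD24neg G9ai replicates 2 and 3 (percentiles 65.0 and 93.1). It had scores of 121 and 110 in the CD24low G9ai replicates (percentiles 73.6 and 90.5). All 4 peaks rank above the middle of their lists, and no vehicle list holds the site.

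Kdm7a and Kdm8 are shown because their promoters are listed on opposite sides in different populations. Kdm7a (chr6:39206774-39207023, minus strand) encodes a demethylase of lysines 9 and 27 of histone H3, and Kdm8 (chr7:125444370-125444619, plus strand) a JmjC-domain hydroxylase:
Kdm7a: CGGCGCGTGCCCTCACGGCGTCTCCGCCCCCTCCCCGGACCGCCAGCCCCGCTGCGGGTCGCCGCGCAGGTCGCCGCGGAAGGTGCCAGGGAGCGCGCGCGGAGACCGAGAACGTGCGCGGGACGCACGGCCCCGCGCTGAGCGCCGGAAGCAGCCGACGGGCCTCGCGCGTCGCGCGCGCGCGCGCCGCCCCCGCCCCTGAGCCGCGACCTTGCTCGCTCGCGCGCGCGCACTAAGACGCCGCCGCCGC
Kdm8: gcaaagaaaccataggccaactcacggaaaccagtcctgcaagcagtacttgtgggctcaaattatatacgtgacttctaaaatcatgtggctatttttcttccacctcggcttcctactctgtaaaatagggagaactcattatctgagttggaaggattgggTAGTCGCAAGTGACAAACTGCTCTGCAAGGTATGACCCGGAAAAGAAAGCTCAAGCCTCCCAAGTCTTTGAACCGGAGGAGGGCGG
At the Kdm7a site, chr6:39206642-39207088, the CD24high G9ai lists had scores of 132 and 74 for replicates 2 and 3 (percentiles 85.1 and 38.2). The CD24low vehicle lists had 45 and 124 for replicates 2 and 3 (percentiles 6.88 and 88.5), so replicates of an arm ranked the peak far apart. At the Kdm8 site, chr7:125444534-125444671, the CD24neg G9ai scores were 59 and 48 (percentiles 21.4 and 3.59) and the CD24high vehicle score was 78 (percentile 31.3). All 3 Kdm8 peaks rank in the lower part of their lists.

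Kmt2a (chr9:44881290-44881539, minus strand), the MLL1 methyltransferase of lysine 4 of histone H3, is shown because the arms are listed side by side at its start, and Arid3c (chr4:41731143-41731392, minus strand), which encodes an AT-rich DNA-binding protein, because vehicle lists of CD24neg and CD24high hold it:
Kmt2a: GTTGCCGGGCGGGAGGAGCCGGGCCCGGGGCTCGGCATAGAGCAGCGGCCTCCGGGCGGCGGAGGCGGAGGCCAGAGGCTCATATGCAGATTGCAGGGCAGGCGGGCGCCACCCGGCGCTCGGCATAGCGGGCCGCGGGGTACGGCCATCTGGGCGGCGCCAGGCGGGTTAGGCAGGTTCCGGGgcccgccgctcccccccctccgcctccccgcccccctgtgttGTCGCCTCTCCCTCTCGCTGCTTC
Arid3c: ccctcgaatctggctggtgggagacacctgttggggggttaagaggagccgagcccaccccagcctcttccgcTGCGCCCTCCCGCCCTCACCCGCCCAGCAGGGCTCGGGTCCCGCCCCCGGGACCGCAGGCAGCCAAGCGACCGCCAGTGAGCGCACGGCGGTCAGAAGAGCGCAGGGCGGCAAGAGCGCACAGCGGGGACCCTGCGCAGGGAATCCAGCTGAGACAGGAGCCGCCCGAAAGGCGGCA
In CD24neg the G9ai lists placed a peak across the Kmt2a start, chr9:44881225-44881313, with scores of 141 and 148 (percentiles 93.7 and 89.8). In CD24low the vehicle lists placed one just upstream, chr9:44881356-44881760, with scores of 151 and 42 for replicates 2 and 3 (percentiles 97.9 and 1.74). The stretch in lower case near the end of the printed bases lies between them, so these 2 regions do not overlap. Further upstream, chr9:44882140-44882312 was G9ai-only in CD24low, with scores of 77 and 60. The Arid3c site, chr4:41731117-41731319, had low scores, 55 in CD24neg (percentile 8.42) and 59 in CD24high (percentile 12.8).

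An inner start of Hdac7 (chr15:97814864-97815113, minus strand), a class IIa deacetylase, is shown because it too is listed on opposite sides:
Hdac7: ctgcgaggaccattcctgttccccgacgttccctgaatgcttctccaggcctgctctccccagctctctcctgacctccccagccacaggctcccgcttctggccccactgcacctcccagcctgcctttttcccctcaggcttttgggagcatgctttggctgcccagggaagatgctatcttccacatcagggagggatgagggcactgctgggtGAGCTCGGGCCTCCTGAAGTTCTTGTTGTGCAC
The site, chr15:97814746-97814896, was G9ai-only in CD24neg, with scores of 71 and 83 (percentiles 42.9 and 46.4), and vehicle-only in CD24high, with a score of 131 (percentile 69.7). The vehicle peak ranks above the middle of its list and the G9ai peaks somewhat below the middle of theirs.

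The member promoters are rich in CG. In the 250 bases before the start, the median number of CG dinucleotides was 19 over the 76 member promoters, against 10 over all 21263 promoters of the table, and the median G+C content was 61.2% against 55.6%. Among those printed, Kdm7a had 56 CG and Kmt2a 29, while Kdm8 had 7 and the inner Hdac7 start 5. The letters GGGCGG, on either strand (the GC box that Sp-family proteins bind), were in 63.2% of member promoters and in 42.6% of all. CCAAT was in 34.2% against 35.4%, and CCGGAA, the core that ETS proteins bind, in 23.7% against 15.0%. The other motifs searched were less frequent in member promoters: the E-box CACGTG was in 3.95% against 6.63%, and TATAAA in 6.58% against 11.6%. The cyclic AMP response element TGACGTCA, in 1.92% of all, and the palindrome that NRF1 binds, in 1.07% of all, were in none of the 76. Both strands were searched for each, overlapping matches were counted, none of these motifs contains another, and a match is a description of the letters alone.

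**Figure D3:**
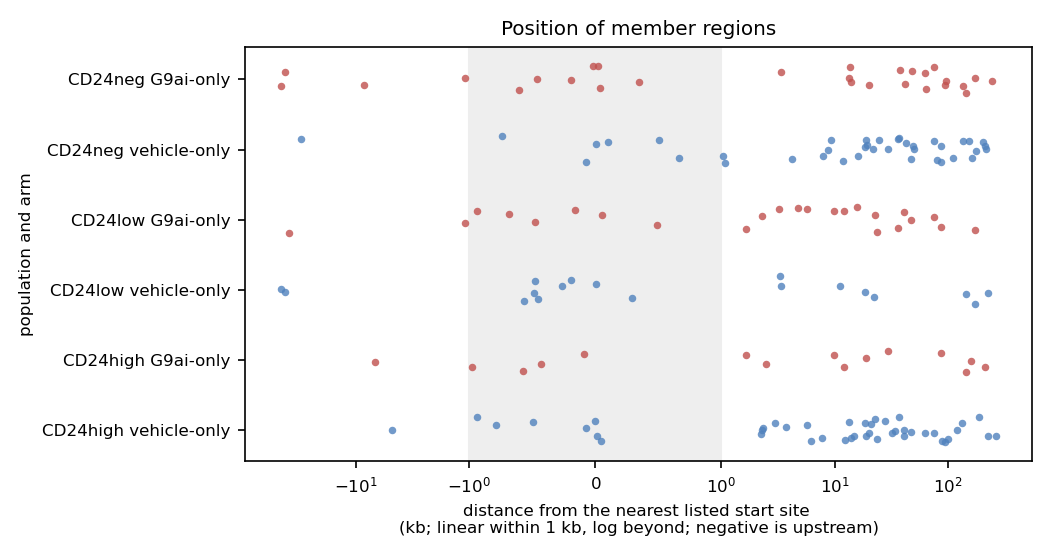
Distance of each member region from the nearest start site in the promoter table (kb, linear within 1 kb and logarithmic beyond, negative upstream), for the 167 regions of members with a site, with 1 dot a region and a random vertical offset. The grey band is 1 kb on either side of the start, and it holds 8 of 18 CD24low vehicle-only regions and 7 of 43 CD24high vehicle-only regions.

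Among the demethylases, the amine oxidase genes Kdm1a and Kdm1b, which take methyl groups off lysine 4 of histone H3, had 1 region each, both vehicle-only. Length gave 1.17 genes with a region. In the JmjC class, 11 of 15 genes had regions, against 9.82 by length. These genes held 44 regions, 15 on the G9ai side and 29 on the vehicle side. Their CD24high vehicle-only count was 10 of 15 genes, against 6.19 given by length, and their CD24low G9ai-only count 3, against 3.98. Kdm2b, at 118.6 kb, held 15 regions (12.4 per 100 kb of window), 8 G9ai-only and 7 vehicle-only. Several of these are the same place listed in 2 populations, some of them on opposite sides, and were counted once in each. Over all gene windows, the same way of counting gave 24.1 regions per Mb. Kdm2b also held a region listed in both arms of CD24neg, chr5:122925608-122925952.

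Kdm2a, the paralog of Kdm2b, had a vehicle-only site in all 3 populations at chr19:4338345-4338448. Its scores were 111 in CD24neg, 113 and 157 in CD24low vehicle replicates 2 and 3, and 201 in CD24high, at percentiles 67.6, 90.8, 96.1 and 91.3. It thus ranks above the middle of each vehicle list that holds it. Kdm2a also had a G9ai-only region in CD24high, in a stretch shared with the neighbouring gene 9430078G10Rik.

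The Kdm4 genes, whose products remove trimethylation from lysines 9 and 36 of histone H3, were on the vehicle side alone where they had regions. Kdm4a had 2 in CD24high, the higher with a score of 216 (percentile 93.2). Kdm4b had 3 in CD24high and 1 in CD24neg, and Kdm4c 1 in each of these populations. Kdm4d had none. Both populations in which they appear have a single vehicle list, and CD24high has the longest list of all.

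Of the Kdm5 genes, which act on lysine 4 of histone H3, Kdm5b had 2 vehicle-only regions in CD24high, with scores of 45 and 49 (percentiles 1.42 and 5.13). Kdm5a had a site listed with G9ai in CD24neg and CD24low and with vehicle in CD24high, in a window it shares with Ccdc77. Kdm5c had 1 region on each side and Kdm5d none. Kdm6b, a demethylase of lysine 27, had a G9ai-only region in CD24neg just outside the gene span, chr11:69420413-69420730, a stretch also in the Dnah2 window. The scores there were 134 and 127 (percentiles 92.0 and 81.9). Kdm6b had vehicle-only regions in CD24low and CD24high, the latter with a score of 206 (percentile 92.1).

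All 5 Kmt2 methyltransferase genes had regions, against 3.20 genes by length. They held 15 regions, 7 on the G9ai side and 8 on the vehicle side. Kmt2d, an enhancer methyltransferase, had a site centred at -1097.5 bp from a start that was G9ai-only in both CD24neg and CD24low, chr15:98872243-98872362. Its scores were 66 and 102 in CD24neg and 88 and 65 in CD24low. Kmt2c, its paralog, had a vehicle-only region in CD24high, chr5:25499503-25499937, centred at -937 bp from its start, with a score of 252 (percentile 96.5). Kmt2e had vehicle-only regions alone, in CD24low and CD24high. Its CD24low region, chr5:23433864-23434007, had scores of 114 and 169 for replicates 2 and 3 (percentiles 91.3 and 97.3), the highest mean rank of the CD24low vehicle-only member regions. Kmt2b had 1 region, G9ai-only in CD24high, which the Zbtb32 window also holds.

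Of the 11 deacetylase genes, 10 had regions, against 6.06 by length. They held 33 regions, 15 on the G9ai side and 18 on the vehicle side. In CD24high, 6 of 11 had a G9ai-only region, against 1.29 given by length and 8.01% of all genes. This was the largest ratio to length of the 10 roles in that list, a ranking read from the counts themselves. With the higher-scoring 50% of peaks, the CD24high G9ai-only count over all members was 4, against 3.35 by length. The 6 deacetylase genes were Hdac3, Hdac4, Hdac6, Hdac7, Hdac9 and Hdac10. Of the class I genes, among them those for the deacetylases of the Sin3, NuRD and NCoR corepressors, Hdac1 had 1 G9ai-only region in CD24low and Hdac2 1 vehicle-only region in CD24neg. Hdac3 had regions on both sides, all in windows shared with Rell2, and Hdac8 had none over 220.7 kb.

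The class IIa genes, whose products shuttle between nucleus and cytoplasm, held most of the deacetylase regions. Hdac7 had 8 over 51.8 kb (14.9 per 100 kb), 6 of them vehicle-only, among them chr15:97836548-97836716 in CD24high with a score of 295 (percentile 98.1). A second Hdac7 site, chr15:97844905-97845069, was vehicle-only in CD24low (scores of 77 and 108) and in CD24high (66). Hdac4 had 8 over 266.9 kb, and its site centred at -577.5 bp from an inner start, chr1:92180790-92181047, was listed in all 3 populations. There the G9ai scores were 96 and 91 in CD24neg and 90 and 101 in CD24high, and the vehicle scores in CD24low 58 and 57. The G9ai peaks of Hdac4 have percentiles of 54.4 to 73.4 and the vehicle peaks 23.3 and 33.2, each in its own list. Hdac5 had 5 regions and Hdac9 4, the latter over 869.5 kb, the longest member (0.459 per 100 kb). Hdac6, Hdac10 and Hdac11 had 1 each.

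Of the 8 acetyltransferase genes, 6 had regions, against 4.53 by length. They held 19 regions, 5 on the G9ai side and 14 on the vehicle side. No Kat gene had a G9ai-only region in CD24neg, against 1.16 given by length. Kat6b, the MORF acetyltransferase, had 4 vehicle-only regions in CD24neg with scores of 150, 146, 109 and 131, all from the 1 vehicle list. Its paralog Kat6a, the MOZ acetyltransferase, had 3 vehicle-only regions in CD24high, the highest with a score of 291 (percentile 98.0). It also had a G9ai-only region there just outside the gene span, with scores of 195 and 72. Kat5, which encodes Tip60, had 1 G9ai-only region in CD24low at an inner start, with scores of 50 and 134 for replicates 2 and 3. These are at percentiles 5.23 and 96.2, so the replicates place the Kat5 peak near opposite ends of their lists. Kat8 and Kat14 had none.

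Of the 10 Chd genes, chromodomain helicases that slide nucleosomes, 7 had regions, against 6.79 by length. They held 33 regions, 14 G9ai-only and 19 vehicle-only. In CD24low 6 of 10 had a G9ai-only region, against 2.97 by length. In CD24high none had one, against 1.46 by length, and 5 had a vehicle-only region, against 4.49. Chd6 had a vehicle-only site in all 3 populations, chr2:161090320-161090483. Its scores were 62 in CD24neg, 85 and 85 in the CD24low replicates and 122 in CD24high, at percentiles 18.2, 73.9, 61.6 and 64.6. Elsewhere in Chd6, chr2:161033208-161033445 was G9ai-only in CD24low with scores of 133 and 135 (percentiles 80.1 and 96.4), the highest mean rank of the CD24low G9ai-only member regions. The same gene thus holds a vehicle-only site in each population and a high-ranking G9ai-only region in CD24low.

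Chd9 and Chd7, the latter the gene mutated in CHARGE syndrome, had 8 regions each. In CD24neg Chd9 had 3 G9ai-only regions with scores of 94 to 156, at percentiles of 72.0 to 91.7. Chd2 had 2 vehicle-only regions in CD24neg, with scores of 185 and 175 (percentiles 94.8 and 93.2), and 3 in CD24high. Chd4, the NuRD helicase, had 1 G9ai-only region in CD24neg and 1 in CD24low, and 1 vehicle-only region in CD24high. Chd1, Chd3 and Chd8 had none.

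Of the 6 ATPase genes of the Smarca type, 3 had regions, 2 on the G9ai side and 9 on the vehicle side, against 4.30 genes by length. Smarca2, encoding the BAF ATPase BRM, was on the vehicle side alone, with 2 regions in CD24low and 1 in CD24high. Smarca4, encoding the alternative ATPase BRG1, had 1 G9ai-only and 2 vehicle-only regions, all in CD24high. It also had neighbouring CD24low peaks, 1 in each G9ai replicate, that do not overlap and so were not counted. Smarcal1, an annealing helicase of stalled replication forks, had the highest-ranking G9ai-only member region in CD24neg, chr1:72536973-72537271, with scores of 136 and 333 (percentiles 92.5 and 99.1). This region lay 278 bp inside an end of the gene span, centred at -46129 bp from the listed start. The CD24low vehicle lists hold the same place, chr1:72537013-72537299, with scores of 105 and 142 (percentiles 87.0 and 93.7). All 4 peaks rank high in their lists although the arm differs by population, and the place is also in the Marchf4 window. Smarca1, Smarca5 and Smarcad1 had none.

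Of the 7 genes of the BAF core and accessory subunits, 4 had regions, against 3.55 by length. They held 8 regions, with none in the CD24high vehicle list, where length gives 1.98 genes. Smarcb1, a subunit lost in rhabdoid tumours, had 1 G9ai-only region in CD24low, with scores of 140 and 60. Smarce1 had a site listed with vehicle in CD24neg and CD24low and with G9ai in CD24high, chr11:99230257-99230627. Smarcd3 had 1 region on each side in CD24low, Smarcc2 1 vehicle-only region in CD24neg, and Smarcc1, Smarcd1 and Smarcd2 none.

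The Arid1 and Arid2 genes, which encode the subunits that set BAF apart from PBAF, had the densest listing of any role, 33 regions in 3 genes (5.95 per 100 kb). Length gave 2.34 genes with a region. Arid1b, at 353 kb, held 20, the most of any member, with 10 on each side. Its CD24high region chr17:5138683-5139153 was G9ai-only, with scores of 332 and 300 (percentiles 99.4 and 99.0), the highest mean rank of all G9ai-only member regions. A site at chr17:5007100-5007443 was G9ai-only in both CD24low (79 and 78) and CD24high (66 and 121). Arid2 had a G9ai-only region in CD24high with scores of 296 and 173 (percentiles 99.2 and 94.5).

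Arid1a had 7 regions. Its upstream site, centred at -460.5 bp from a start, chr4:133754270-133754621, was G9ai-only in CD24neg, with scores of 118 and 171 (percentiles 87.2 and 94.7), and vehicle-only in CD24low, with scores of 80 and 105 (percentiles 67.9 and 79.0). Inside the gene, chr4:133751662-133751836 had a score of 269 in the CD24high vehicle list (percentile 97.4) and 69 and 43 in the CD24low G9ai lists (percentiles 26.0 and 3.68). The lists of the 2 arms at each Arid1a site come from different populations and differ in length, so their ranks are given side by side with no comparison of the arms.

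The other 7 Arid genes all had regions, 23 in all, against 4.18 genes by length. Arid5b, at 186.8 kb, held 12, with 6 on each side. Arid5a was the only member with G9ai-only regions in 2 populations and none on the vehicle side. Its CD24neg region lay 347 bp after its start, with scores of 72 and 79, and its CD24low region had scores of 92 and 70. Arid3a, Arid3c and Arid4b were on the vehicle side alone. Arid3b and Arid4a had regions on both sides.

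**Figure D4:**
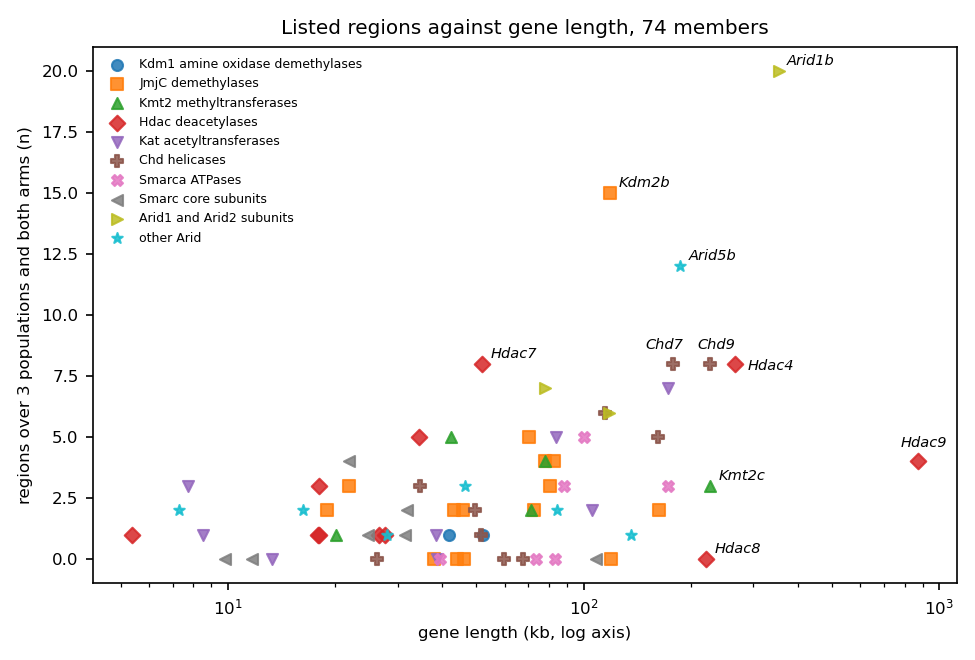
Number of regions listed in 1 arm only, over the 3 populations and both arms, against gene length (kb, log axis) for the 74 members, with 1 point a gene and its shape and colour by role. A place listed in several populations is counted once in each. Arid1b (20 regions), Kdm2b (15) and Arid5b (12) lie highest, and the long genes Hdac8 (0) and Hdac9 (4) lie low.

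Gene length did not order the members fully. Kat2a had 3 regions over 7.74 kb (30.8 per 100 kb), but these are the same site, listed once in each population. Hdac9, the longest, had 0.459 per 100 kb. Among the 37 members at or above their median length, 13 had a CD24low vehicle-only region, against 5.89 by length, and among the 37 shorter ones 8 did, against 2.82. For CD24low G9ai-only regions the longer members gave 14, against 13.1, and the shorter 11, against 5.86. The CD24low vehicle-only count was thus above the length number in long and short members alike, and the G9ai-only count mostly in the short ones.

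Regions of the 3 populations that overlap were joined into sites, 183 of them in member windows. Of these, 32 (17.5%) were listed in at least 2 populations, against 14.6% of sites in all gene windows (3130 of 21438). Listed in all 3 populations were 6, against 268 of the 21438. On the same side throughout were 13: 8 vehicle-only and 5 G9ai-only. In all gene windows, 1092 of the 3130 were vehicle-only throughout and 472 G9ai-only. The other 19 member sites (59.4%) were G9ai-only in 1 population and vehicle-only in another, against 49.8% of such sites in all gene windows. That share is near enough that nothing particular to the members is read from it. These 19 lay in 15 genes, 4 of them in Kdm2b and 2 in Arid1a. No member site was listed with G9ai in all 3 populations, while Kat2a, Kdm2a and Chd6 each had one listed with vehicle in all 3. Sites on 1 side throughout were also more often vehicle-only over all gene windows, so nothing particular to the members is read from this. The populations share library prefixes, so the listings of a site are not independent of each other.

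**Figure D5:**
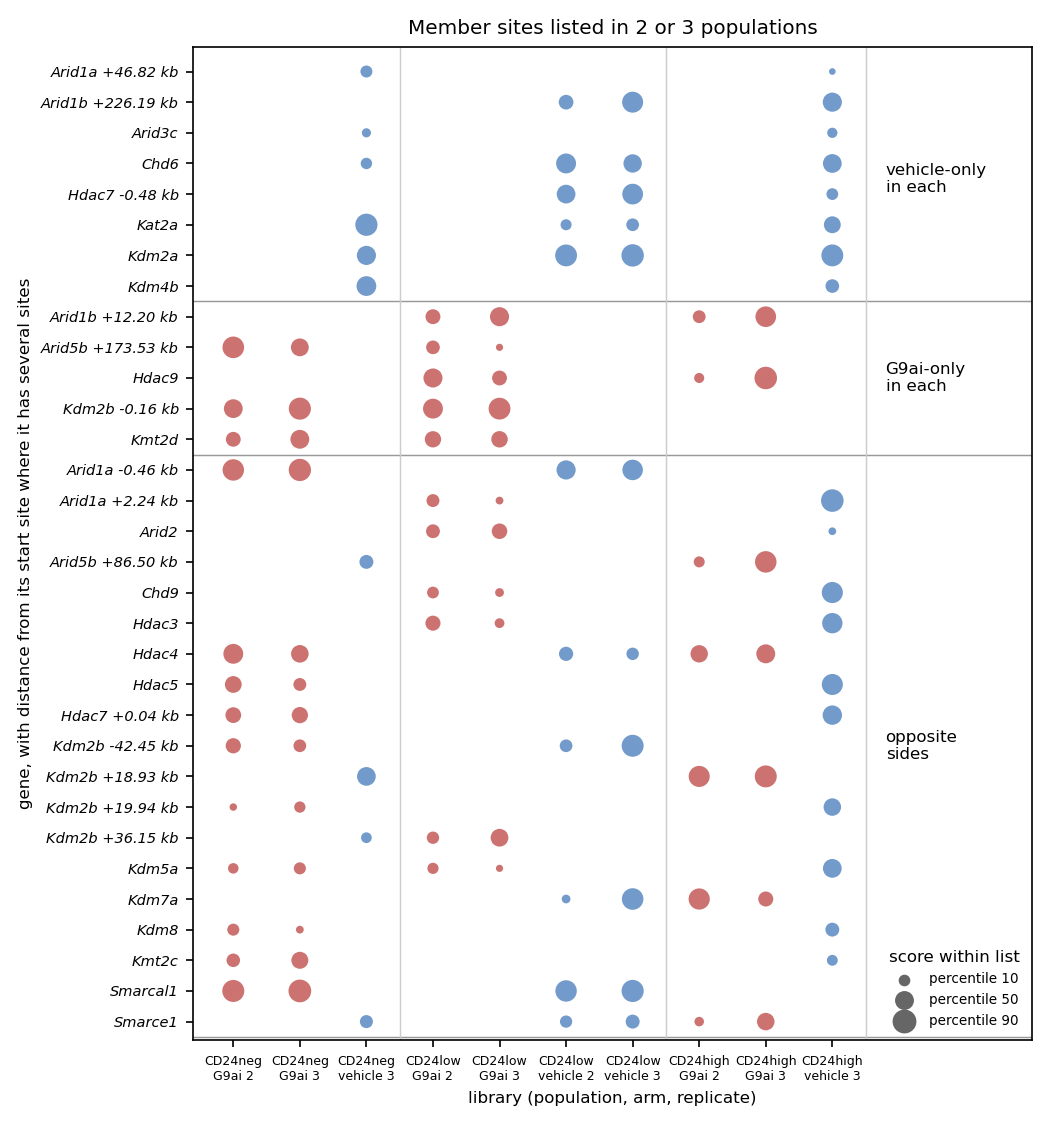
The 32 member sites listed in at least 2 populations, by library (red, G9ai; blue, vehicle; dot area by the percentile of the peak score within its list), with the distance from the start site (kb) where a gene has several. The 8 upper sites are vehicle-only throughout, the next 5 G9ai-only throughout, and the 19 lower ones change side between populations.

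Replicate lists ranked the same member regions differently. The median difference in percentile between the 2 replicates was 14.7 for CD24neg G9ai, 19.6 for CD24low G9ai, 16.6 for CD24low vehicle and 31.9 for CD24high G9ai. Over all regions it was 23.1, 22.3, 26.2 and 22.0. A difference of that size between sites or arms is within the spread of replicates.

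Other chromatin genes were counted from lists by textbook role: Polycomb, other acetyltransferases, sirtuins, other methyltransferases, other JmjC proteins, BAF, NuRD, ISWI and INO80, corepressor and COMPASS partners. Of 130 such genes, 88 had a region, against 72.5 by length. In CD24low 37 had a G9ai-only region, against 28.1 by length, and 18 a vehicle-only region, against 12.9. In CD24neg the counts were 22 against 18.7 and 37 against 33.5, and in CD24high 21 against 14.0 and 45 against 43.7. Each count was above the number by length. For CD24low G9ai-only regions the ratio was nearly that of the members (25 against 18.9). For the other counts it was smaller than for the members. The 29 Polycomb genes had a G9ai-only region in CD24low in 9 cases, against 5.12 by length, and a vehicle-only one in 1, against 2.42. In CD24neg the Polycomb counts leaned to vehicle, with 1 G9ai-only, against 3.47, and 11 vehicle-only, against 6.35. In CD24high they were 2, against 2.60, and 10, against 8.31. The difference between these genes and the members was not tested.

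The sort could not be checked from arm-specific lists. Epcam, Krt8, Ly6a (which encodes Sca-1) and Cd24a had no listed region, and Cdh1 had regions in each population. Krt18 had 1 G9ai-only region in CD24neg and 1 in CD24high. Of 4 endothelial genes, 3 had a vehicle-only region in CD24neg (1.31 by length), 2 a G9ai-only region in CD24low (1.07) and 2 a vehicle-only region in CD24high (1.68), with Cdh5 at 0. Of 4 leukocyte genes, 2 had a vehicle-only region in CD24neg (0.854 by length) and 1 a G9ai-only region in CD24low (0.733), with Cd68 and Cd3e at 0. Of 3 club cell genes, 3 had a G9ai-only region in CD24low (0.249 by length) and 2 a vehicle-only region in CD24high (0.385). Of 4 multiciliated cell genes, 1 had a G9ai-only region in CD24neg (0.824 by length), 3 a vehicle-only region there (1.29), 4 one in CD24high (1.56), 2 a G9ai-only region in CD24low (1.14) and 2 one in CD24high (0.596). Over all populations and both arms, 4 of 5 alveolar type 2 genes had a region (2.13 by length), and 2 of 4 alveolar type 1 genes (1.81). So did 1 of 3 basal genes (1.36) and 3 of 4 mesenchymal genes (1.96). Of the 37 marker genes together, 13 had a G9ai-only region in CD24low (6.34 by length) and 2 a vehicle-only one (2.89). In CD24neg these counts were 3 (4.33) and 13 (7.68), and in CD24high 5 (3.24) and 14 (9.86). The ratio to length was above that of the members for CD24low G9ai-only, CD24neg vehicle-only and CD24high vehicle-only regions. For the other counts it was below, and the difference was not tested. Whether other cell types had a part in the member counts was not tested, and a change in the cells of a type and a change within them cannot be told apart.

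No region was listed for Chd1, Chd3, Chd8, Hdac8, Kat14, Kat8, Kdm3a, Kdm4d, Kdm5d, Kdm6a, Smarca1, Smarca5, Smarcad1, Smarcc1, Smarcd1 and Smarcd2.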

How the data were processed

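Open chromatin was measured by ATAC-seq of sorted lung epithelial cells, with the protocol of Corces et al., per the labels' protocols. FastQC, Bowtie2, MACS2 and mm10 are named per the submitters' processing notes. Versions, settings, read shifting and the step that made the lists specific to an arm are absent from the sources used here. The deposited files are lists of peak positions with the authors' peak score, called per library. Scores served to rank the peaks of a list, as percentiles with 0 lowest.

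Repeated lines were dropped. Groups came from the labels. Peaks of a population were merged at 1 bp of overlap, and genes were taken from a RefSeq table of GRCm38.p6 as the span and 1 kb on either side. Members and lists were chosen with earlier results of these data known. Counts of members carry no test. They were set beside all genes and beside 20 length bins of equal gene number. List lengths were compared by exact permutation. The labels' design names separate mice, and no culture or litter.

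Named members were, per population and arm, up to 6 with the highest mean percentile, those listed on 1 side in several populations or on opposite sides, the 5 with most regions, and those with a region at a promoter or within 1 kb of a gene end. The counting was tested on simulated lists. Python 3.11.15, pandas 2.3.3, NumPy 2.4.6, SciPy 1.17.1 and Matplotlib 3.10.9 were used. Alternatives were other windows, peak subsets, overlaps, region rules and leaving out each replicate.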

Additional observations from a re-analysis of the deposited data

Results flagged for a closer look

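At 19 member sites every listed library of an arm holds the site in 1 population and every listed library of the other arm holds it in another. The difference was not tested, vehicle in CD24neg and CD24high is 1 list each, and a site absent from a list can still be open there. The mean percentile of the peak scores over the lists that hold a site was 93.1 at Smarcal1 (chr1:72536973-72537299), 82.2 at the upstream Arid1a site and 80.1 at Kdm2b chr5:122881335-122881497. It was between 40 and 60 at Kdm7a (54.7), Hdac5 (53.1), Hdac7 (53.0), Hdac4 (51.0), Kdm2b chr5:122942721-122942915 (45.3), Arid5b (45.2), the inner Arid1a site (42.4) and Hdac3 (42.3). It was lower at Chd9 (37.2), Kmt2c (32.1), Kdm2b chr5:122952214-122952501 (31.6), Smarce1 (29.2), Arid2 (25.4), Kdm2b chr5:122968475-122968656 (25.1), Kdm5a (23.8) and Kdm8 (18.8). Sites on opposite sides made up 49.8% of sites shared by populations in all gene windows, near the 59.4% in member windows (19 of 32).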

How the results depend on the processing

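Of 64 alternatives for the 6 member counts, 49 stayed within 1.5 times and 62 stayed above the number given by gene length, the exceptions being 2 for CD24low G9ai-only. In the order CD24neg G9ai-only and vehicle-only, CD24low G9ai-only and vehicle-only, CD24high G9ai-only and vehicle-only, the counts within 1 kb of gene ends alone were 8, 7, 8, 8, 8 and 10. Length gave 3.20, 5.69, 5.03, 2.81, 2.59 and 7.56. The shares of all genes were 3.72%, 6.52%, 6.04%, 3.10%, 3.09% and 9.03%. With the higher-scoring 50% of peaks the counts were 10, 18, 7, 7 and 4 for the first 5, against 4.59, 13.6, 7.45, 2.74 and 3.35 by length. The shares of all genes were then 3.74%, 10.9%, 6.01%, 2.41% and 2.69%. With equal list lengths the counts were 14 and 11 in CD24neg, 2 for CD24low G9ai-only and 12 for CD24high vehicle-only. Length gave 6.22, 8.63, 4.67 and 8.55 for these, and the shares of all genes were 5.11%, 6.78%, 3.58% and 7.08%. Member peaks per Mb with the higher-scoring 50% were 2.36, 4.41, 1.90, 1.90, 1.52 and 5.48. In gene spans alone they were 5.14 (CD24neg G9ai), 4.82 and 3.03 (CD24low G9ai and vehicle) and 2.65 (CD24high G9ai). Leaving out each replicate, 16 of the 64 alternatives, moved the CD24low G9ai-only count between 25 and 26 and no other member count. Replicate lists of an arm hold almost the same peaks as deposited. These 16 alternatives could therefore barely move a count, and they do not measure the spread between mice. With repeated lines kept, chosen after seeing the data, G9ai lists were 0.480, 3.00 and 0.219 times as long as vehicle lists in CD24neg, CD24low and CD24high. No paired analysis was possible because the member counts come from no test and the labels do not tie same-numbered mice of the arms. The vehicle arms of CD24neg and CD24high have 1 list each, and unknown depth limits every absence from a list.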
